A study of Mus musculus with 2 samples.

Results

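The sites described here are the peaks of Oct4 chromatin recovered through the lectin sWGA in the windows of 6 genes of mouse embryonic stem cells: Jarid2, Tet1, Tet2, Dnmt3a, Dnmt3b and Dnmt3l. A peak was taken as a member when its summit lay in a fixed mm9 window drawn for the gene and its surroundings. The windows were 280 kb for Jarid2, 170 kb for Tet1, 180 kb for Tet2, 200 kb for Dnmt3a, 110 kb for Dnmt3b and 90 kb for Dnmt3l. They hold 34 of the 33783 peaks on the list, in 1030 kb.

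Both libraries came from ZHBTc4 F-Oct4 cells, an embryonic stem cell line with Flag-tagged Oct4. As background, ZHBTc4 cells are known for having their own Pou5f1 alleles inactivated and for living on an Oct4 transgene, so the Oct4 measured is not at its native locus. Chromatin bound by anti-Flag was eluted and bound again, either to sWGA, a lectin for N-acetylglucosamine, or to control material, which the labels call an input, IgG and agarose beads in different places. Each group had 1 library and no other treatment is named, with 6129874 filtered tags for sWGA and 78351 for the control. No value below therefore has a replicate error and none is tested between the groups, and intervals cover counting error only. They treat peaks as independent, which neighbouring peaks are not.

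Oct4, the product of Pou5f1, is a transcription factor needed for pluripotency, and O-GlcNAc is a single sugar that the enzyme Ogt attaches to nuclear proteins. Jarid2 encodes a partner of Polycomb repressive complex PRC2, which methylates histone H3 on silent developmental genes, and Jarid2 itself lacks demethylase activity. Tet1 and Tet2 encode dioxygenases that oxidise 5-methylcytosine in DNA. Dnmt3a and Dnmt3b encode the enzymes that place new DNA methylation, and Dnmt3l encodes a cofactor without catalytic activity that stimulates them.

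RefSeq promoter sequences (GRCm38.p6) were found for all 6 genes, at 11 start sites. They are on another build than the peaks, so a peak was not placed on a promoter, and the sequences under the peaks are not shown here. The 250 bases upstream of the first start of Jarid2 and of Dnmt3l are given because the strongest site of each of these loci held more tags than any site of the other 4 genes. Capitals mark CG dinucleotides, the substrate of the Dnmt3 and Tet enzymes.
Jarid2, chr13:44730524-44730773, plus strand: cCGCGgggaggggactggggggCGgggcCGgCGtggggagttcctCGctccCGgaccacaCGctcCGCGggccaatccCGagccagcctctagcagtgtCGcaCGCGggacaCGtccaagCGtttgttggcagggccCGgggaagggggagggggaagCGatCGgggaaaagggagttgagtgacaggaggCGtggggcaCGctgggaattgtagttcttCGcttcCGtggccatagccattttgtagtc
Dnmt3l, chr10:78042037-78042286, plus strand: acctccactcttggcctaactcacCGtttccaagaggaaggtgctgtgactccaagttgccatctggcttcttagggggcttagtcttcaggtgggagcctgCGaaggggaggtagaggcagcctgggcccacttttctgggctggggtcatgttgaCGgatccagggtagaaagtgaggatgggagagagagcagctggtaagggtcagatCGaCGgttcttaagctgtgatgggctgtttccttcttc
The Jarid2 sequence held 23 CG dinucleotides and the Dnmt3l sequence 5, where the median of 32536 mouse promoters was 6. The Tet2 upstream sequence held 51 and that of Dnmt3b 21. The octamer ATGCAAAT, the known recognition sequence of Oct4, was searched on both strands of the 11 upstream sequences and was found in 0, and it was present in 1.62% of all promoters of this length. The Sox motif CATTGT, which matches in 10.5% of them, was also found in 0 of the 11. These searches say only that the letters are not in these 250 bases.

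Peaks were dense at Jarid2 and Tet2 and absent at Dnmt3a. Over the 6 windows there were 34 peaks where the density of the chromosomes outside the windows gives 14.2, a ratio of 2.40 (95% interval 1.66 to 3.36, exact Poisson). Of these, 15 lay at Jarid2 and 10 at Tet2. Without the Jarid2 window 19 peaks stood against 10.4, a ratio of 1.82 (1.10 to 2.85). Of these 19, 10 were the Tet2 peaks, where the chromosome's density gives 2.42. The ratios of Tet1, Dnmt3a, Dnmt3b and Dnmt3l each had an interval that included 1. The combined ratio thus does not describe each window, and it was not computed without both Jarid2 and Tet2. By density the order was Tet2 at 5.56 peaks per 100 kb, Jarid2 at 5.36, Dnmt3l at 3.33, Tet1 at 2.35, Dnmt3b at 1.82 and Dnmt3a at 0. Among the 5 loci with peaks, the density ratio had an interval that included 1 in all 10 of 10 pairs, so neighbours in this order are not told apart.

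**Figure D1:**
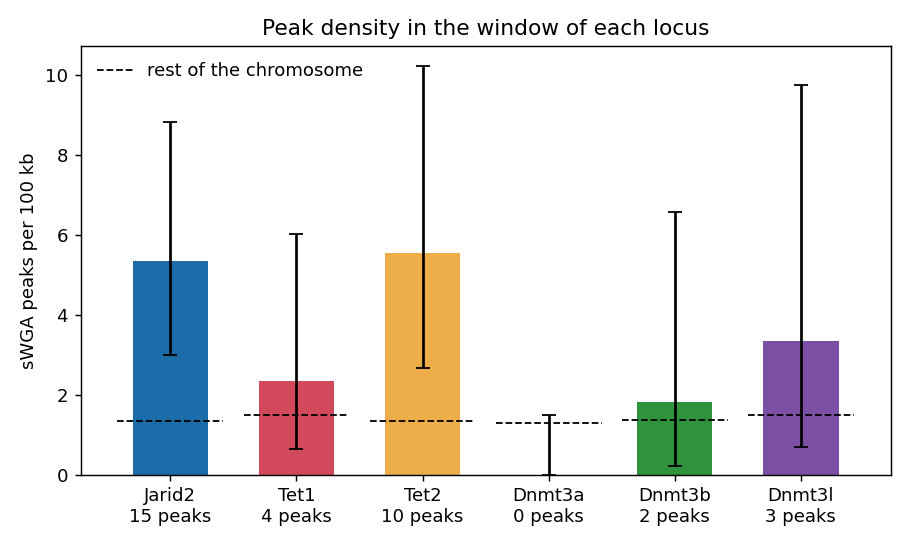
Number of sWGA peaks per 100 kb (vertical axis) in the window of each gene, with exact Poisson 95% intervals of the count (for 0 peaks, up to 3 counts) and the density of the rest of the chromosome as a dashed line. The intervals of Jarid2 and Tet2 lie above their dashed lines, and the Dnmt3a window is empty.

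The excess in number of peaks was smaller when neighbouring peaks were joined. Peaks with gaps of up to 10 kb were joined and each group was counted once at its midpoint. This left 14 groups in place of 34 peaks, and such joining must lower counts most where peaks are dense. The group of 5 peaks across the start of the Jarid2 window had its midpoint outside and was not counted. The ratio over the 6 windows was then 1.27 (0.694 to 2.13). It became 1.73 for Jarid2 (0.561 to 4.05) and 2.66 for Tet2 (0.861 to 6.21), both now including 1. For Tet1 and Dnmt3b it changed side, to 0.508 and 0.851, with 1 group each. Counting strong peaks alone had the opposite effect: with at least 18 tags the ratio was 7.63 for Jarid2 (2.78 to 16.8), 11.3 for Tet2 (3.64 to 26.5) and 5.24 over the 6 windows (2.93 to 8.65).

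**Figure D2:**
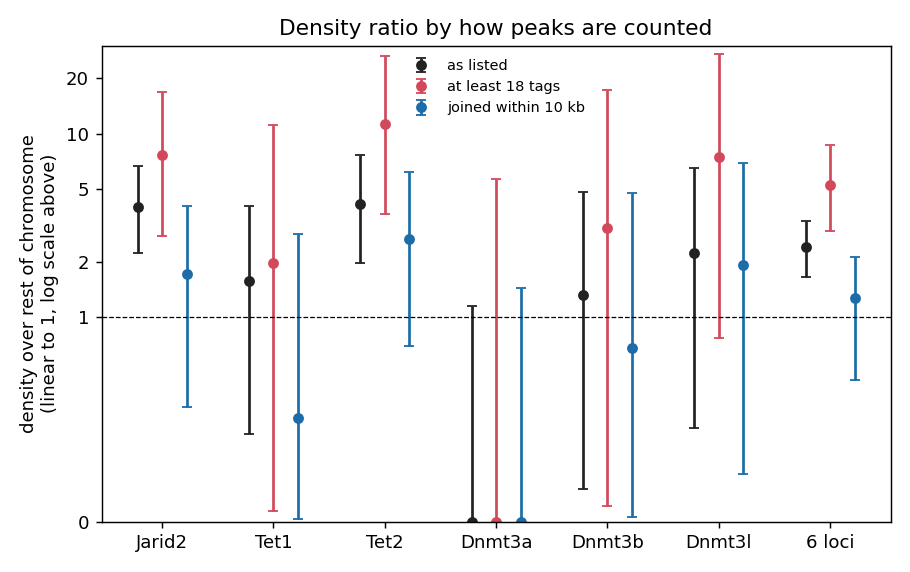
Ratio of the density in the window to that of the rest of the chromosome (vertical axis, linear to 1 and logarithmic above) for each gene and for the 6 together, over all listed peaks, over peaks of at least 18 tags and over joined groups, with 95% intervals. Joining neighbours moves all non-zero ratios down, and for Jarid2, Tet2 and the 6 together the interval then crosses the dashed line at 1.

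The Jarid2 window, on chromosome 13 from 44780000 to 45060000, held 15 peaks where the chromosome's 1.34 per 100 kb gives 3.74. The ratio was 4.01 (2.24 to 6.63, exact Clopper-Pearson interval, as for each locus with peaks below and not adjusted for the number of loci). Of the 429 windows of 280 kb laid end to end along chromosome 13, 0.699% held as many peaks or more, and 1.17% did when the windows were shifted by 140 kb. These windows also ran over the locus and counted its own peaks, as did those of each locus below. The Jarid2 peaks held 343 tags, or 122.5 per 100 kb against 20.05 on the rest of the chromosome, a ratio of 6.11.

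The strongest site of the 6 loci lay here, at 44800559 to 44801384. It held 105 tags over 826 bp, of which 68 stood at its summit, for a fold of 133.83 and a deposited score of 1253.7. The fold is the authors' ratio of the summit to the background their caller expects, and the score is 10 times the negative log10 of its p-value. Only 0.130% of listed peaks held as many tags, and 1 peak of chromosome 13 held more. It stood alone, with the nearest summit 12.9 kb away. Next came a broad site of 1354 bp, the longest of the 34, at 44816945 to 44818298, where 62 tags gave a fold of 53.14 and scored 472.66.

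The 15 peaks fell into stretches on either side of a gap of 73.1 kb with no summit. The 9 peaks before it spanned 50.3 kb and held 261 tags, 76.1% of the locus. The 6 peaks after it spanned 45.8 kb and held 82 tags, none above 19 in a single peak. In the first stretch, 6 peaks from 44813871 to 44833793 formed an unbroken group of 134 tags. Besides the broad site this group held a peak of 24 tags at 44825679 to 44826348 and one of 20 tags at 44829163 to 44829756, both with a fold of 31.49, and 3 peaks of 9 to 10 tags. Groups of at least 6 peaks numbered 78 among the 26001 groups of the list, and Tet2 had one too.

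In the later stretch the peaks of most tags held 19 each, at 44907731 to 44908494 with a score of 114.45 and at 44946492 to 44947120 with a score of 129.52. Of the other 4, a short peak of 222 bp at 44952435 to 44952656 reached a score of 112.54 on 10 tags, and a peak of 457 bp at 44911200 to 44911656 reached 100.92 on 14 tags. The first site of the window, split over neighbouring peaks from 44783215 and from 44783700, held 12 and 10 tags with scores of 78.99 and 101.12. Its first summit lay 3.35 kb inside the window, and the next summit outside, 5.04 kb before the start, belonged to a peak of 23 tags, so the window's edge runs through a group of 5 peaks.

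The 280 kb before the window held 6 peaks and the 280 kb after it 2. The nearest peak after the window lay 116 kb beyond its end. By these counts the density inside the window was higher than on either side.

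The Tet2 window, on chromosome 3 from 133080000 to 133260000, held 10 peaks where 1.34 per 100 kb gives 2.42, a ratio of 4.14 (1.98 to 7.63). Of 886 windows of 180 kb along chromosome 3, 0.903% held as many or more, and 1.24% when shifted by 90 kb. The peaks held 205 tags, 114 per 100 kb against 19.3, a ratio of 5.91. Flanking stretches of the same length held 0 peaks before and 2 after, and the nearest summit before the window was 223 kb away.

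Strength was more evenly shared at Tet2 than at Jarid2, since its top peak held 20.5% of the tags of the locus and that of Jarid2 30.6%. That top peak, at 133195362 to 133196080, held 42 tags, with its fold at 55.11 and its score at 377.7. A neighbour with its summit 1587 bp further on, at 133196562 to 133197464, held 27 tags over 903 bp. Apart from these, 31 tags lay at 133240152 to 133240637 with a fold of 41.33, 23 tags at 133187608 to 133188175 and 18 tags at 133253845 to 133254230.

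The remaining 5 Tet2 peaks held 10 to 17 tags. Among them, those of 17 tags at 133169549 to 133170017, of 14 tags at 133207227 to 133207615 and of 12 tags at 133132947 to 133133240 scored 130.75, 110.51 and 101.12. The group of 6 peaks from 133187608 to 133215106 carried 127 of the 205 tags in 27.5 kb. The last summit lay 5.91 kb inside the window's end, and a peak of 11 tags had its summit 3.74 kb beyond it.

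The only member peaks scored against a local control background were 2 of the 10 at Tet2, those of 23 and 27 tags. Their folds, 11.54 and 9.9, were 14 and 12 whole summit tags (within 0.01) over the expectation that 1 control tag in 10 kb sets. The folds of the other 32 members were whole tags over the genome-wide expectation of 0.508 tags. In the whole list 8.79% of peaks had a local background. The peak of 27 tags scored 86.58, and the Tet1 peak of the same number of tags, over a longer 1079 bp but with the genome-wide background, scored 156.02.

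The Tet1 window, on chromosome 10 from 62220000 to 62390000, held 4 peaks where 1.50 per 100 kb gives 2.54, a ratio of 1.57 (0.428 to 4.03). As many or more peaks lay in 26.6% of windows of 170 kb on that chromosome, so the density was not distinguishable from the chromosome's. The 4 peaks formed 1 group of 13.5 kb, with no summit in the rest of the window. The strongest, at 62346555 to 62347633, held 27 tags, but only 6 of them at its summit, for a fold of 11.81. The other 3, with 11, 9 and 10 tags, scored 80.96, 57.12 and 67.53. Tet1 and Tet2, members of the same enzyme family, thus held 1 and 5 peaks of at least 18 tags, but the ratio of all their peaks per 100 kb, 2.36 for Tet2 over Tet1, had an interval of 0.681 to 10.3.

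The Dnmt3l window, on the same chromosome from 77470000 to 77560000, held 3 peaks against 1.35 at the chromosome's density, a ratio of 2.23 (0.459 to 6.52), and 18.1% of windows of 90 kb held as many or more. Its peaks were few but mostly strong. The first, at 77510724 to 77511466, held 45 tags with a fold of 64.95, and only 2.74% of listed peaks held as many. A compact peak of 330 bp at 77559454 to 77559783 held 25 tags with a fold of 45.27. The third, from 77551630, held 9 tags and scored 56.58. The compact peak counts as a member by 0.405 kb, the distance of its summit from the window's end.

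The Dnmt3b window, on chromosome 2 from 153440000 to 153550000, held 2 peaks against 1.51, a ratio of 1.33 (0.161 to 4.80), and 39.2% of windows of 110 kb held as many or more. One was a narrow site at 153448271 to 153448589, where 34 tags in 319 bp gave a fold of 62.98 and scored 397.77. At 107 tags per kb of peak it came after the strongest Jarid2 site, at 127, and before all other members. The other, from 153458276, held 10 tags. Beyond the window the next summit lay 512 kb after its end.

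The Dnmt3a window, on chromosome 12 from 3760000 to 3960000, held 0 peaks, where the chromosome's 1.30 per 100 kb gives 2.60. For a count of 0 the upper limit was set at 3 peaks, or 1.50 per 100 kb, a range that includes the chromosome's density. Of windows of 200 kb on chromosome 12, 17.3% were empty. Those windows were laid from the chromosome's first base, so the empty ones include any before its first listed region. The neighbourhood was not empty: the 200 kb before the window held 8 peaks, one of them with 59 tags, and the 200 kb after it held 4. The nearest summits lay 21.1 kb before the window, in a peak of 21 tags at 3738738 to 3739141, and 44.9 kb after it, in a peak of 16 tags at 4004762 to 4005228. The strongest sites of the Dnmt3 genes held 45 tags at Dnmt3l and 34 at Dnmt3b, and 5.77% of listed peaks held at least 34. With 3, 2 and 0 peaks at Dnmt3l, Dnmt3b and Dnmt3a, no contrast among these genes is drawn.

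**Figure D3:**
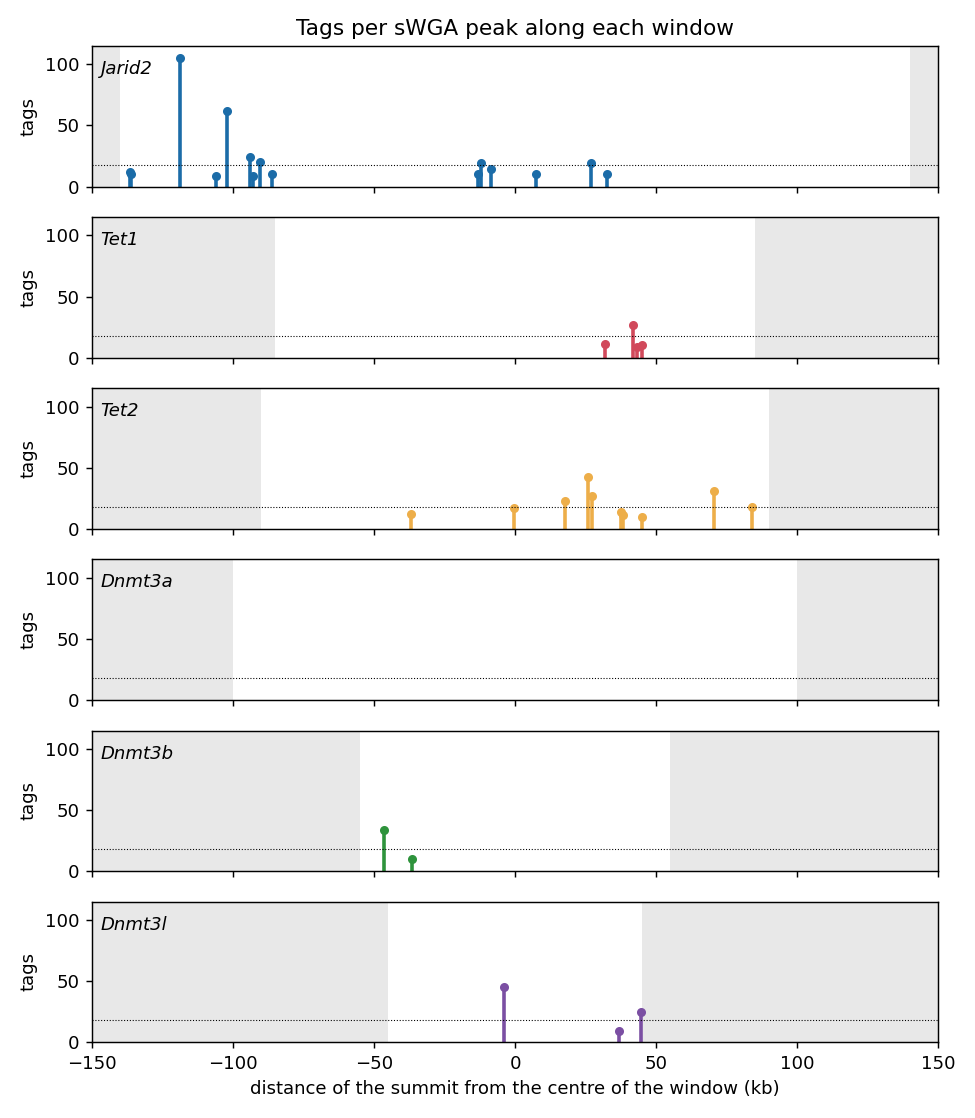
Tags per peak (vertical axis) against the distance of its summit from the centre of the window in kb, for each gene, with ground outside the window in grey (peaks there are not drawn) and a dotted line at 18 tags. Jarid2 has its tallest sites in the first of its stretches, Tet1 a single cluster, and Dnmt3a no peak.

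Taken by strength, 20 of the 34 members (58.8%, exact interval 40.7 to 75.4) had a score of at least 100, where 33.9% of the whole list did, and 15 (44.1%, 27.2 to 62.1) had at least 18 tags, where 21.4% did. Without Jarid2 these were 11 of 19 (57.9%, 33.5 to 79.7), an interval that reaches just below the share of the list, and 9 of 19 (47.4%, 24.4 to 71.1). By locus, 9 Jarid2 peaks, 7 Tet2 peaks, 2 Dnmt3l peaks, 1 Tet1 peak and 1 Dnmt3b peak had that score. Peaks of 9 to 12 tags, which are 62.3% of the list, numbered 16 of the 34.

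The median member held 14 tags (95% interval 10 to 23), and the median of the same 5 chromosomes outside the windows was 11. Median length was 458 bp (389 to 568) against 417, and median fold 16.73 (13.78 to 23.62) against 15.75. For these 3 medians the outside value lay inside the members' interval, and the sets differed more in their upper quartiles, 24.75 tags in members and 16 outside.

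The order of the loci by their median peak was not that by their strongest site. The highest medians, 25 tags at Dnmt3l and 22 at Dnmt3b, rest on 3 and 2 peaks. Tet2 peaks had a median of 17.5 tags, where the rest of chromosome 3 had 10, and a median fold of 23.62 against 15.75. Jarid2 peaks had a median of 12 tags against 11 and the same median fold as chromosome 13, 15.75, although that locus held the strongest site. Tet1 peaks had a median of 10.5 tags against 11 on chromosome 10, and a median fold of 12.8 against 15.75.

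**Figure D4:**
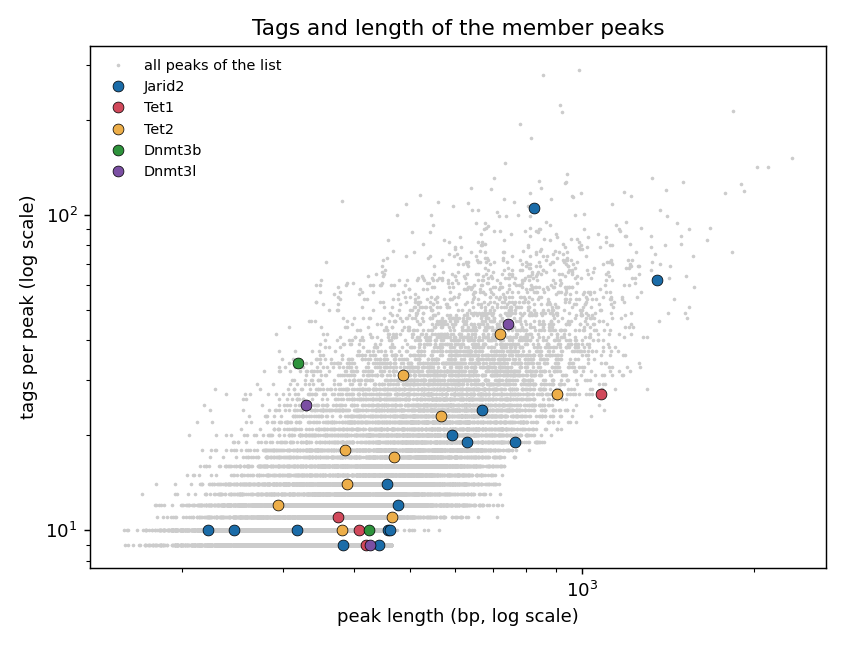
Tags per peak against peak length in bp, both on log scales, for the 34 members (coloured by gene) and all 33783 listed peaks (grey). The longest members are the broad Jarid2 site of 1354 bp and the Tet1 peak of 1079 bp, and the Dnmt3b site of 319 bp and the Dnmt3l site of 330 bp hold 34 and 25 tags in little length.

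Another summit lay within 5 kb of 18 of the 34 members (52.9%, 35.1 to 70.2), where 25.9% of the list had one. Without Jarid2 it was 7 of 19 (36.8%, 16.3 to 61.6). On so few peaks this interval includes the share of the list, so closeness outside Jarid2 is not told apart from it. By locus these were 11 of 15 at Jarid2, 4 of 10 at Tet2, 3 of 4 at Tet1, and 0 at Dnmt3b and Dnmt3l. The median distance to the nearest summit was 4.09 kb in members and 17.1 kb in the list.

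In the control list 1 of the 750 regions lay in the windows. It was in the Jarid2 window at 44964945 to 44965117 and held 3 tags, with the nearest sWGA summit 12.5 kb away. Its score was 3100, above that of every member, and its fold was 1.49. The other 5 windows had 0 control regions. Spread evenly, the control library would put 11.7 tags into the Jarid2 window and 8.38 into the Dnmt3a window, so the control is too shallow to give a level for a single site. Whether a listed peak depended on the sWGA step, beyond the anti-Flag step before it, was not tested.

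The caller's FDR, a percent made from the control list, was highest for the strongest members. It was 100% for the Jarid2 peaks of 105 and 62 tags, 94.67% for the Dnmt3l peak of 45 tags and 2.32% for a Jarid2 peak of 9 tags. For all 34 members it was recomputed within 0.01 by dividing how many control regions reached the peak's score by how many sWGA peaks did, as a percent of at most 100. Every member with a score of at least 100 had an FDR of at least 6.64%. With 1 control tag weighed as 78.2 sWGA tags, the control region of 3 tags above scored 3100. The FDR was therefore not used here to rank the sites.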

How the data were processed

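Sequential chromatin immunoprecipitation of Flag-Oct4 was sequenced in 1 sWGA library and 1 control library. MACS 1.4.1 called the regions, and 1e-05 was its p limit, per the file headers, and the build is mm9, per the submitters' processing notes. Which aligner was used is not given in the sources used here. Deposited tags are whole, unscaled counts per region. The deposited fold is a ratio, the deposited score comes from the caller's p-value, and the deposited FDR is a percent. Per the file headers the caller scaled the control to the sWGA depth, so that 1 control tag weighed as 78.2 sWGA tags. The control's own list is, by its name, the caller's negative list.

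Members were peaks with a summit (start + summit - 1) in the windows. Densities were divided by window length and by chromosome length up to the last listed region, outside the 6 windows. Intervals are exact at 95%. Named sites were the peak of most tags per window and every other with at least 18 tags or a score of at least 100, 21 in all. Promoters came from RefSeq (GRCm38.p6) and no mm9 annotation was used, so genes, exons and introns under the peaks and the other genes of these pathways were not analysed here. The windows may hold parts of neighbouring genes. Members and lists were chosen with earlier results of these data known. The interval of the density ratio was tested on simulated independent counts, and the joining of peaks on a constructed example. The other steps were not tested in this way. The tools were scipy 1.17.1, pandas 2.3.3, numpy 2.4.6 and matplotlib 3.10.9 under Python 3.11.15.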

Additional observations from a re-analysis of the deposited data

How the results depend on the processing

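No paired analysis was possible because there was 1 library for sWGA and 1 for the control, so no replicate could be left out either. Over 8 other settings, 51 of 56 density ratios kept their direction and whether their interval held 1. The other 5 came from joining peaks within 10 kb: 1.73 for Jarid2, 2.66 for Tet2 and 1.27 for the 6 loci came to include 1, and 0.508 for Tet1 and 0.851 for Dnmt3b reversed, with 1 group each. Joining leaves fewer counts. The 56 ratios are not independent, since the 6 loci together repeat the single loci. Some settings could move them little. For Jarid2 the ratio was 3.99 with all autosomes as reference and 3.90 with the span taken from the first listed region. Counting by any overlap of at least 1 bp returned the main values unchanged. With windows widened by 50 kb the Dnmt3a window held 3 peaks, a ratio of 0.770. With a score of at least 100 the ratio over the 6 loci was 4.27. With at least 18 tags the medians were 27 tags, 670 bp and a fold of 31.49, and with a score of at least 100 the fold was 24.6, as a part of the list chosen by strength must give. Leaving out Jarid2, and widening the windows for the shares and the control count, were added after seeing the data. Leaving out Jarid2 gave a ratio of 1.82 that stayed above 1, with 10 of its 19 peaks at Tet2. The share with a score of at least 100 (57.9%, 33.5 to 79.7) and that with a summit within 5 kb (36.8%, 16.3 to 61.6) then included those of the list. With shifted windows, also added, the share of windows as dense as Jarid2 went from 0.699% to 1.17%. These shares count windows over the locus too. Widening moved neither share of strong peaks out of its interval and left the control count at 1. The control held 78351 tags, too few for a level at a single site, and loci with 2 to 4 peaks have wide intervals.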
